A study of Mus musculus with 6 samples.

Results

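The genes described here are the TNF superfamily ligands and receptors whose array name follows the pattern Tnfsf or Tnfrsf with a number. The naming rule found 30 of the 35077 genes on the array, 10 ligands and 20 receptors, covered by 40 probes. Members with other symbols, such as Tnf, Fas or Cd40, fall outside the rule and are given as a separate list. TNF superfamily ligands are mostly membrane proteins that act as trimers, and some are also released from the cell surface. They bind receptors that either recruit TRAF adaptors and activate NF-kB or, where they carry a death domain, can start apoptosis. In the skeleton the best known trio is Tnfsf11 (RANKL), its receptor Tnfrsf11a (RANK) on osteoclast precursors and the soluble decoy receptor Tnfrsf11b (osteoprotegerin).

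The samples were outer interzone and intermediate interzone of mouse embryos at 15.5 days of gestation, the layers of condensed cells at a future joint. Each group had 3 replicates, and 1 replicate was 1 embryo. Strain, sex, joint and the way the layers were separated are not given in the sources used here. Cy3-labelled cRNA from total RNA was hybridised to 1 Agilent array per sample. Levels are log2 processed signal with that array's 75th percentile subtracted, SDs are over n = 3 arrays, and differences are outer minus intermediate. Levels of different probes cannot be set against each other.

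Arrays differed in brightness, with 75th percentiles of the processed signal at 47.4, 290 and 150 in outer replicates 1, 2 and 3, and 144, 265 and 344 in intermediate replicates 1, 2 and 3. Outer replicate 1 was dim, as 35.6% of spots passed the background flag there and 45.1% to 53.4% elsewhere, and on that array the lowest probe well above background lay at a level of -1.81. Slide 1 held outer replicate 1 with the 3 intermediate arrays and slide 2 held the other 2 outer arrays. A slide block, or slide 1 alone, therefore compares outer replicate 1 alone with the intermediate arrays. The interzone marker Gdf5 stood at 5.69 ± 1.07 in the outer and 5.69 ± 0.89 in the intermediate samples (limma adjusted p = 0.998), and the cartilage collagen gene Col2a1 at 8.87 ± 0.35 in the outer and 5.68 ± 0.67 in the intermediate samples (limma adjusted p = 0.011). Of the 9 interzone markers tested, Gdf5 among them, 2 were called higher and 1 lower in the outer interzone.

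Of the 30 members, 20 had a probe well above background throughout 1 group or both and were tested, 4 of the 10 ligands and 16 of the 20 receptors. Over the whole array 51.3% of genes were tested. Of the tested members 14 were well above background on all 6 arrays. Of the other 10 members, 8 were well above background on no array. These were the ligands Tnfsf4, Tnfsf10, Tnfsf13b and Tnfsf14 and the receptors Tnfrsf8, Tnfrsf13c, Tnfrsf17 and Tnfrsf26. Tnfsf15, the ligand of the death-domain receptor Tnfrsf25, was well above background on 1 intermediate array, and Tnfsf11 on 1 outer and 2 intermediate arrays. Several receptors were thus measured while their ligand was not.

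In the fit without a block limma called 2 of the 20 tested members at adjusted p 0.05, both lower in the outer interzone and none higher. They were Tnfsf8 and Tnfrsf13b, genes best known from lymphocytes. Over all 18003 genes tested limma called 4.05%, with 2.48% lower and 1.57% higher in the outer interzone. Both members were tested because the intermediate arrays passed the background flag, which no outer array did for Tnfsf8 and 1 did for Tnfrsf13b. With signal required on all 6 arrays neither was tested and limma called 1 member, Tnfrsf11a, with 3.11% of all genes called. With no such filter neither passed (limma adjusted p = 0.142 for Tnfsf8 and 0.172 for Tnfrsf13b). At unadjusted p under 0.05 there were 10 of 20 members, against 21.1% of all genes. The groups did not overlap for 8 of the 20 members (40%), against 27.1% of all genes. In 5 of the 8 the outer arrays were lower (Tnfrsf13b, Tnfsf8, Tnfrsf1b, Tnfrsf11a, Tnfrsf1a) and in 3 they were higher (Tnfrsf18, Tnfrsf11b, Tnfrsf4), against 11.4% and 15.6% of all genes. These are measured values. Tnfrsf13b, Tnfsf8 and Tnfrsf1b, which are in both counts, and Tnfsf18, which is in the first, were tested only through the intermediate arrays. No outer array passed the background flag for Tnfsf8, Tnfrsf1b or Tnfsf18. The counts are therefore not read as a trait of the family. The median difference of the tested members was 0.12 and that of all genes 0.10. Scaling each array to its median moved the median of all genes to -0.29. Limma then called 5 members, all lower in the outer interzone, with 6.08% of all genes called. Blocking on the replicate number gave 4 members called by limma, 2 lower and 2 higher (Tnfrsf18, Tnfrsf19), with 9.09% of all genes called, and with slide as a block 1 member (Tnfrsf13b), with 6.75% of all genes called. Same-numbered samples deviated together, so that block is given where it changes a call.

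**Figure D1:**
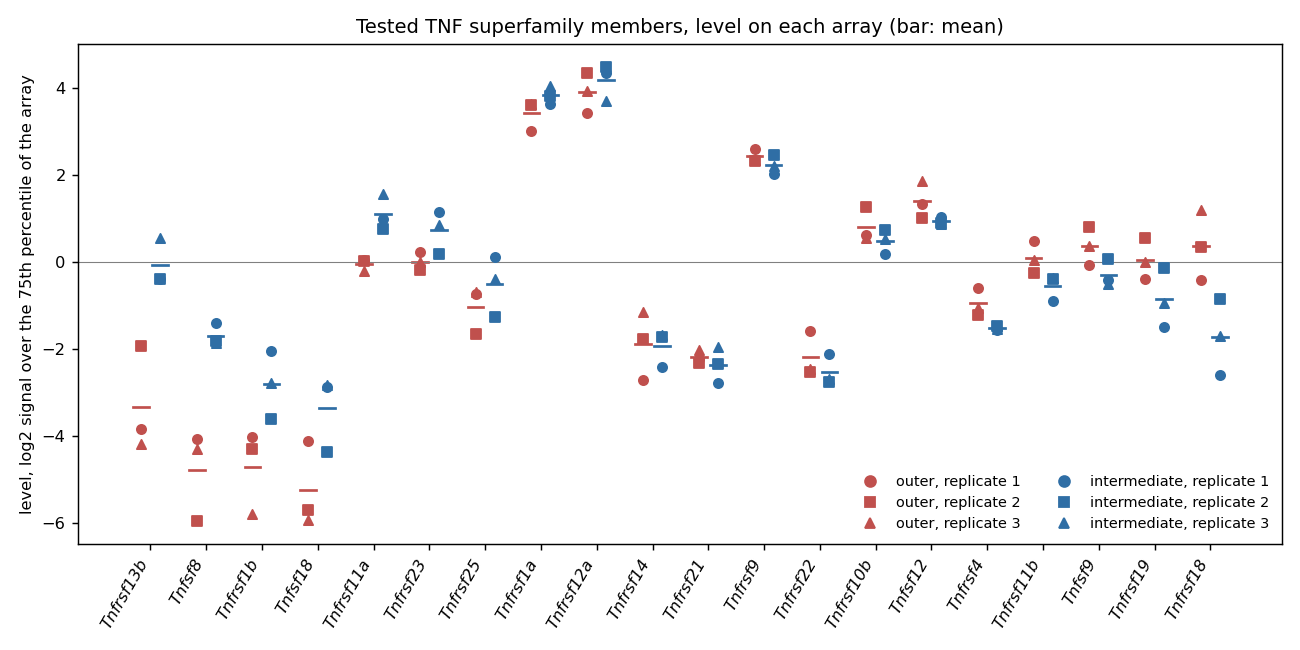
Level of each tested member on each array, on the log2 scale relative to that array's 75th percentile, with outer samples in red, intermediate samples in blue, a symbol per replicate number and a bar at the mean of 3 arrays. Levels are comparable only within a gene, and the measured values of the groups do not overlap for 8 of the 20 genes, among them Tnfrsf18 at the right. The outer points of Tnfsf8, Tnfrsf1b and Tnfsf18 were not well above background.

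**Figure D2:**
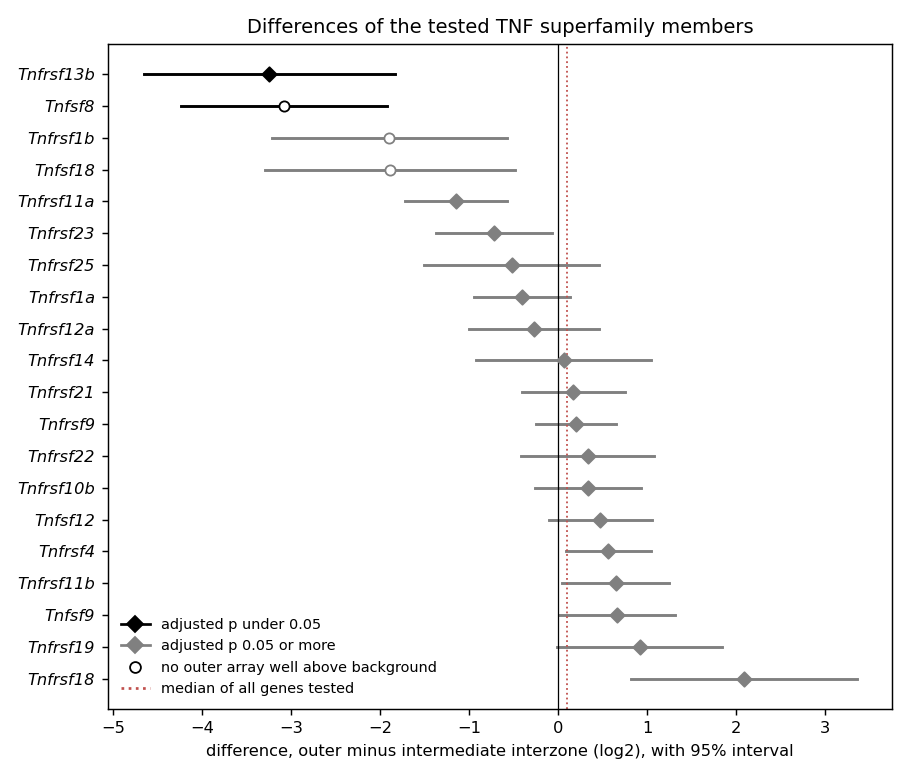
Difference of each tested member, outer minus intermediate interzone on the log2 scale, with the 95% interval from limma. Tnfrsf13b (-3.24) and Tnfsf8 (-3.08) are drawn in black as past adjusted p 0.05, and the dotted line marks the median of all genes at 0.10.

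Tnfsf8 encodes CD30 ligand, which activated T cells and other leukocytes carry. Its probe lies on the minus strand at chr4:63493871-63493930 (mm9). The first 30 of its 60 bases identify what was measured, since the result rests on this probe alone.
Tnfsf8 probe: caagctgtgctcagaaagtcaaccactgaa
Tnfsf8 stood at -4.06, -5.97 and -4.30 on the outer arrays, against -1.41, -1.82 and -1.86 on the intermediate arrays. The measured values did not overlap, and the probe was well above background on all 3 intermediate arrays and on no outer array. The outer level is therefore only a limit, and on outer replicate 1 that limit (-1.81) reached the levels of intermediate replicates 2 and 3. The fold is an approximate bound. Each outer value under that array's dimmest signal well above background was raised to it, and the intermediate mean was set against the outer mean. Probes without the flag can lie above that signal, as Tnfrsf1b did on outer replicate 2, so the fold is not a strict minimum. By this bound Tnfsf8 was 3.22-fold lower in the outer interzone. The measured means were -4.78 ± 1.04 in the outer and -1.70 ± 0.25 in the intermediate samples. Limma tested the measured difference of -3.08 (limma adjusted p = 0.0239). Another setting, called normexp below, used normexp background correction with an offset of 50 and then quantile normalization. The offset shrinks differences between dim signals, so its values are not set against the bound. With it the difference was -0.97 (limma adjusted p = 0.00923). With slide as a block it was -2.37 and missed the threshold (limma adjusted p = 0.0661). Within slide 1, where the only outer array was not well above background, it was also -2.37. The call was also lost without outer replicate 3 or any 1 intermediate array (limma adjusted p = 0.0688 to 0.0958) and without a filter (limma adjusted p = 0.142). Its receptor gene Tnfrsf8 (CD30) was well above background on no array. In bulk samples such as these, fewer cells of a type and less RNA per cell cannot be told apart.

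Tnfrsf13b encodes TACI, a receptor for the ligands BAFF and APRIL that is known from B cells. It was covered by 3 probes on chromosome 11, plus strand, and the probes differed in level and in difference, so the start of each is shown, 30 of 60 bases, in order of falling coordinate (chr11:60962770-60962829, chr11:60960405-60960464 and chr11:60954823-60954882, mm9).
Tnfrsf13b probe 1: cctggagaatatagcctggctccatttgca
Tnfrsf13b probe 2: atcttctgctgtttcttggtggccttggcc
Tnfrsf13b probe 3: tcagctgtgactccacctgcacacagcacc
Probe 1, the brightest and the one that carries the call, stood at -3.85, -1.94 and -4.19 on the outer arrays, against -0.38, -0.40 and 0.54 on the intermediate arrays. The groups were far apart, and of the 3 outer arrays 1, replicate 2, was well above background. The difference was -3.24 with SE 0.60 (limma adjusted p = 0.0363), and since outer replicates 1 and 3 lay below the dimmest signal well above background on their arrays, no fold is given. Probe 2, also well above background on all 3 intermediate arrays, stood at -2.49, -3.05 and -2.59 in the outer and -2.41, -2.45 and -2.60 in the intermediate samples. Its groups overlapped and its means differed by -0.22. Probe 3 was well above background on no array. Probes 1 and 2 averaged gave -1.73 (limma adjusted p = 0.0206). Probe 1 carries an Ensembl transcript accession in the files where the other two carry RefSeq accessions matched to Tnfrsf13b, and whether the probes read the same transcripts was not tested. The call was kept with slide as a block (-3.77, limma adjusted p = 0.0465), but this contrast rests on outer replicate 1, the only outer array on slide 1. That array was not well above background for probe 1, and slide 1 alone gave the same difference. With normexp the difference was -1.49. The call was lost with quantile normalization (-3.60, limma adjusted p = 0.0679) and without outer replicate 1 or 3 or any 1 intermediate array (limma adjusted p = 0.0723 to 0.139), and without a filter (limma adjusted p = 0.172). Of the ligands, Tnfsf13b (BAFF) was well above background on no array, as were the related receptors Tnfrsf13c and Tnfrsf17.

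The RANKL, RANK and osteoprotegerin genes are shown with the start of their probes, 30 of 60 bases each, because each gene rests on 1 probe. The probes lie at chr14:78677444-78677503 (minus strand), chr1:107741892-107741951 (plus strand) and chr15:54082760-54082819 (minus strand), all mm9.
Tnfsf11 probe: gatacataataggctactgaaatctgtcag
Tnfrsf11a probe: ccttgagagctaagttcaggtgaccttgtc
Tnfrsf11b probe: tttatccagctgtcatgtctggttcagtat
Tnfsf11 stood at -4.12, -4.48 and -3.17 on the outer arrays, against -4.17, -3.21 and -2.67 on the intermediate arrays. The groups overlapped, and 1 of 3 outer and 2 of 3 intermediate arrays were well above background. The ligand gene was therefore not tested. On intermediate replicates 2 and 3 it lay above the dimmest signal well above background there (-4.45 and -4.95), and on intermediate replicate 1 below it (-3.60). Without any filter on dim probes it differed by -0.58 (95% interval -1.86 to 0.71, limma adjusted p = 0.543).

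Tnfrsf11a, the receptor that RANKL activates, was measured on all 6 arrays. It stood at 0.06, 0.01 and -0.20 on the outer arrays, against 0.99, 0.76 and 1.57 on the intermediate arrays. Every outer array lay below every intermediate array, and the outer arrays were close together. The difference was -1.15 with SE 0.24, 2.22-fold lower in the outer interzone (95% interval -1.72 to -0.58), just short of the threshold (limma adjusted p = 0.0504). It passed with arrays scaled to their median (-1.54, limma adjusted p = 0.0135) and with normexp (-0.98, limma adjusted p = 0.0311). It also passed with an intensity trend, with signal required on all 6 arrays and with probes averaged per gene (limma adjusted p = 0.0345 to 0.0474). As the gene has 1 probe, these last settings leave its difference at -1.15 and change only the test. Tnfrsf11a did not pass with slide as a block (-1.05, limma adjusted p = 0.119), with quantile normalization (limma adjusted p = 0.0624), with the replicate block (0.0537), without a filter (0.229) or without any 1 array (0.0647 to 0.166). Within slide 1 its difference was -1.05.

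Tnfrsf11b, the decoy that binds RANKL, lay the other way. Its levels were 0.48, -0.26 and 0.04 on the outer arrays, against -0.90, -0.40 and -0.37 on the intermediate arrays. The groups did not overlap, though the gap between the nearest arrays was small. The difference of 0.65 (SE 0.25, 1.56-fold, 95% interval 0.04 to 1.25) did not pass (limma adjusted p = 0.21). It was 0.25 with arrays scaled to their median and 1.04 after blocking on slide (limma adjusted p = 0.0922) or within slide 1.

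**Figure D3:**
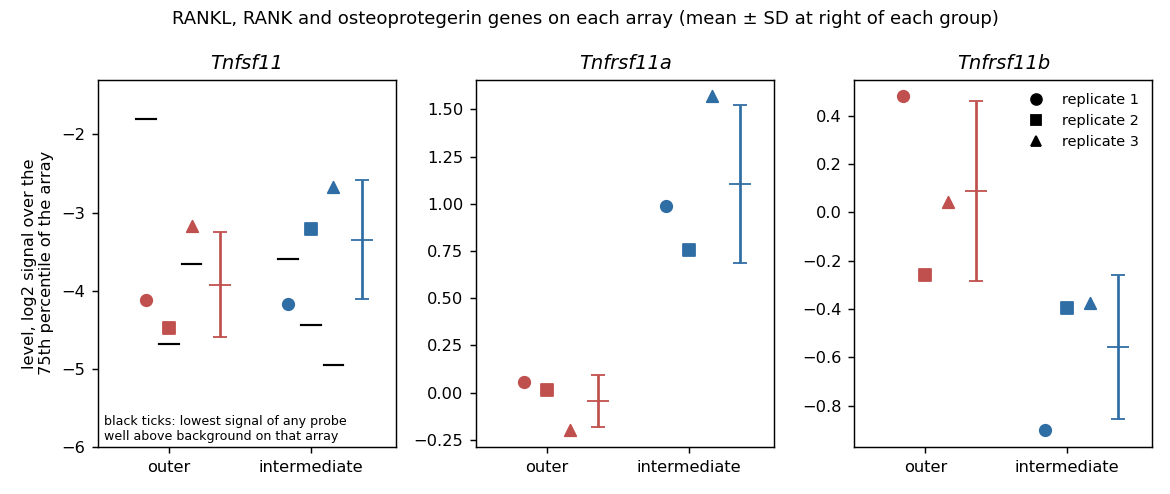
Levels of Tnfsf11, Tnfrsf11a and Tnfrsf11b on each array, on the log2 scale relative to that array's 75th percentile, with outer samples left of intermediate samples, a symbol per replicate and the mean with SD over 3 arrays beside each group; each panel has its own axis. For Tnfsf11 the black ticks mark the lowest signal of any probe well above background on that array. The points lie below the ticks on outer replicate 1 and intermediate replicate 1 and above them on the other arrays. The outer points lie below the intermediate ones for Tnfrsf11a and above them for Tnfrsf11b.

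Tnfrsf18 and its ligand Tnfsf18, the GITR pair that costimulates T cells, lay in opposite directions. Tnfrsf18 stood at -0.42, 0.34 and 1.19 on the outer arrays, against -2.59, -0.86 and -1.70 on the intermediate arrays. It was measured on all 6 arrays and each outer array lay above every intermediate array. The difference was 2.09 with SE 0.54, 4.24-fold (95% interval 0.82 to 3.35), and did not pass without a block (limma adjusted p = 0.0869). With the replicate block it passed (limma adjusted p = 0.04), while blocking on slide (limma adjusted p = 0.26), or slide 1 alone, gave 1.30. Tnfsf18 stood at -4.12, -5.71 and -5.94 on the outer arrays, against -2.88, -4.38 and -2.84 on the intermediate arrays. The groups overlapped through outer replicate 1, and no outer array was well above background. Only an approximate bound is therefore given, 1.01-fold lower in the outer interzone. Its measured difference of -1.89 did not pass (limma adjusted p = 0.138) and passed with arrays scaled to their median, with quantile normalization and without outer replicate 1 (limma adjusted p = 0.0317, 0.0377 and 0.0493). It was -0.75 after blocking on slide (limma adjusted p = 0.479) or within slide 1, and -0.48 with normexp (limma adjusted p = 0.105).

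Neither of the TNF receptors passed the test. Tnfrsf1b (TNFR2), found mainly on leukocytes and endothelium, stood at -4.02, -4.30 and -5.80 on the outer arrays, against -2.04, -3.60 and -2.78 on the intermediate arrays. It was well above background on no outer array, and the limit on outer replicate 1 (-1.81) lay above every intermediate value, so the order of the layers on that array is not known. Over the 3 outer arrays the approximate bound was 1.36-fold lower in the outer interzone, with measured means of -4.71 ± 0.96 outer and -2.81 ± 0.78 intermediate. The measured difference was -1.90 (limma adjusted p = 0.119) and -2.29 with arrays scaled to their median (limma adjusted p = 0.0323). It was -1.21 after blocking on slide (limma adjusted p = 0.337) or within slide 1, and -0.46 with normexp (limma adjusted p = 0.132). Tnfrsf1a (TNFR1), the death-domain receptor that most cell types carry, was bright on every array, at 3.02, 3.61 and 3.63 in the outer and 3.64, 3.81 and 4.04 in the intermediate samples. The neighbouring values of the groups nearly met. Its difference was -0.41 (95% interval -0.95 to 0.13, limma adjusted p = 0.353), and a second probe of the gene gave 0.057, so the direction depends on the probe. Tnf itself was well above background on no array.

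Of the remaining costimulatory genes, Tnfrsf4, Tnfsf9, Tnfrsf9 and Tnfrsf25 were well above background on all 6 arrays and Tnfrsf14 on 5. Tnfrsf4 (OX40) stood at -0.60, -1.21 and -1.06 on the outer arrays, against -1.56, -1.47 and -1.53 on the intermediate arrays, fully apart but by little. Its difference was 0.56 (95% interval 0.08 to 1.04, limma adjusted p = 0.179). The probes of Tnfrsf4 and Tnfrsf18, both of which lay higher on all outer arrays, are 12.2 kb apart on chromosome 4. Tnfsf9 (4-1BB ligand) stood at -0.06, 0.81 and 0.37 on the outer arrays, against -0.42, 0.06 and -0.51 on the intermediate arrays. The ranges overlapped through outer replicate 1, and the difference was 0.66 (95% interval 0.01 to 1.31, limma adjusted p = 0.231). Its receptor gene Tnfrsf9 (4-1BB) averaged 2.43 ± 0.15 in the outer and 2.23 ± 0.23 in the intermediate samples, and the difference was 0.20 (limma adjusted p = 0.579), or -0.19 with arrays scaled to their median and 0.10 relative to the median of all genes under both scalings. Tnfrsf9 has another probe, which was well above background on no array. Tnfrsf14 (HVEM), the receptor of LIGHT, averaged -1.88 ± 0.79 in the outer and -1.94 ± 0.41 in the intermediate samples, a difference of 0.06 (95% interval -0.92 to 1.04, limma adjusted p = 0.949). Tnfrsf25 (DR3) averaged -1.03 ± 0.55 in the outer and -0.51 ± 0.70 in the intermediate samples, a difference of -0.52 (95% interval -1.51 to 0.46, limma adjusted p = 0.511). Both overlapped between the layers. Of the ligands for these receptors, OX40 ligand (Tnfsf4) and LIGHT (Tnfsf14) were well above background on no array and Tnfsf15 on 1.

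Tnfsf12 (TWEAK) and its receptor gene Tnfrsf12a (Fn14), which growth factors induce in fibroblasts, were both measured on all 6 arrays. Tnfrsf12a stood at 3.43, 4.35 and 3.93 on the outer arrays, against 4.35, 4.49 and 3.70 on the intermediate arrays. The groups overlapped and the difference was -0.27 (95% interval -1.01 to 0.46, limma adjusted p = 0.649). Tnfsf12 stood at 1.34, 1.02 and 1.87 in the outer and 1.05, 0.89 and 0.87 in the intermediate samples, a difference of 0.47 (95% interval -0.10 to 1.05, limma adjusted p = 0.315). A dimmer probe of Tnfsf12 gave -0.61, and the mean of both probes -0.069.

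Tnfrsf19 (TROY), an orphan-type receptor known from embryonic skin, brain and other progenitor tissues, stood at -0.39, 0.56 and -0.01 on the outer arrays, against -1.50, -0.14 and -0.94 on the intermediate arrays. The groups overlapped, but each outer array lay above the intermediate array of the same number. The difference of 0.91 did not pass without a block (SE 0.39, limma adjusted p = 0.245) and passed with the replicate block (SE 0.14, limma adjusted p = 0.0373). With slide as a block and within slide 1 it was 0.47. A second probe, well above background on 2 outer and 2 intermediate arrays, gave 0.73.

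The TRAIL receptors were measured although Tnfsf10 (TRAIL) was well above background on no array. Tnfrsf10b, the mouse death receptor for TRAIL, averaged 0.81 ± 0.39 in the outer and 0.48 ± 0.27 in the intermediate samples, a difference of 0.34 (95% interval -0.26 to 0.94, limma adjusted p = 0.487). Tnfrsf22 and Tnfrsf23 encode decoy receptors for TRAIL in mouse and lie beside each other on chromosome 7 with Tnfrsf26, their probes 25.0 and 29.3 kb apart. Tnfrsf23 stood at 0.22, -0.19 and -0.01 on the outer arrays, against 1.15, 0.19 and 0.86 on the intermediate arrays, with the ranges just touching. Its difference was -0.73 (95% interval -1.38 to -0.07, limma adjusted p = 0.198). Tnfrsf22 was dim but well above background on all 6 arrays, at -2.20 ± 0.54 in the outer and -2.52 ± 0.35 in the intermediate samples. It differed by 0.33 (limma adjusted p = 0.588), and a dimmer probe of it by -0.11. These genes are related in sequence. No probe of 1 member shared a run of more than 12 bases with a probe of another. Probes were not compared with the transcripts of other members, so whether a probe also reads a related gene was not tested. Tnfrsf21 (DR6), a death-domain receptor, was at -2.19 ± 0.15 in the outer and -2.36 ± 0.42 in the intermediate samples, and differed by 0.17 (95% interval -0.41 to 0.75). With arrays scaled to their median the differences of Tnfrsf10b, Tnfrsf22 and Tnfrsf21 were -0.055, -0.063 and -0.22, as that scaling lowers every gene alike. Relative to the median of all genes they were 0.24, 0.23 and 0.072 under both scalings.

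Chromosome 4 carried 9 of the 30 members, and several family genes lie next to each other in the genome. Tnfrsf4 and Tnfrsf18, with probes 12.2 kb apart, both lay higher on every outer array than on any intermediate array. Neither was called without a block. In the pairs that follow, 1 gene was rarely or never well above background, so a shared pattern could not be read. Tnfsf8, called lower in the outer interzone, has Tnfsf15 as its neighbour, with 106 kb between the probes, and Tnfsf15 was well above background on 1 array. Tnfsf18 lies 87.2 kb from Tnfsf4 and Tnfrsf1b 80.2 kb from Tnfrsf8, and neither Tnfsf4 nor Tnfrsf8 was well above background on any array. Tnfsf9, measured on all 6 arrays, lies 82.1 kb from Tnfsf14, which was well above background on none.

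**Figure D4:**
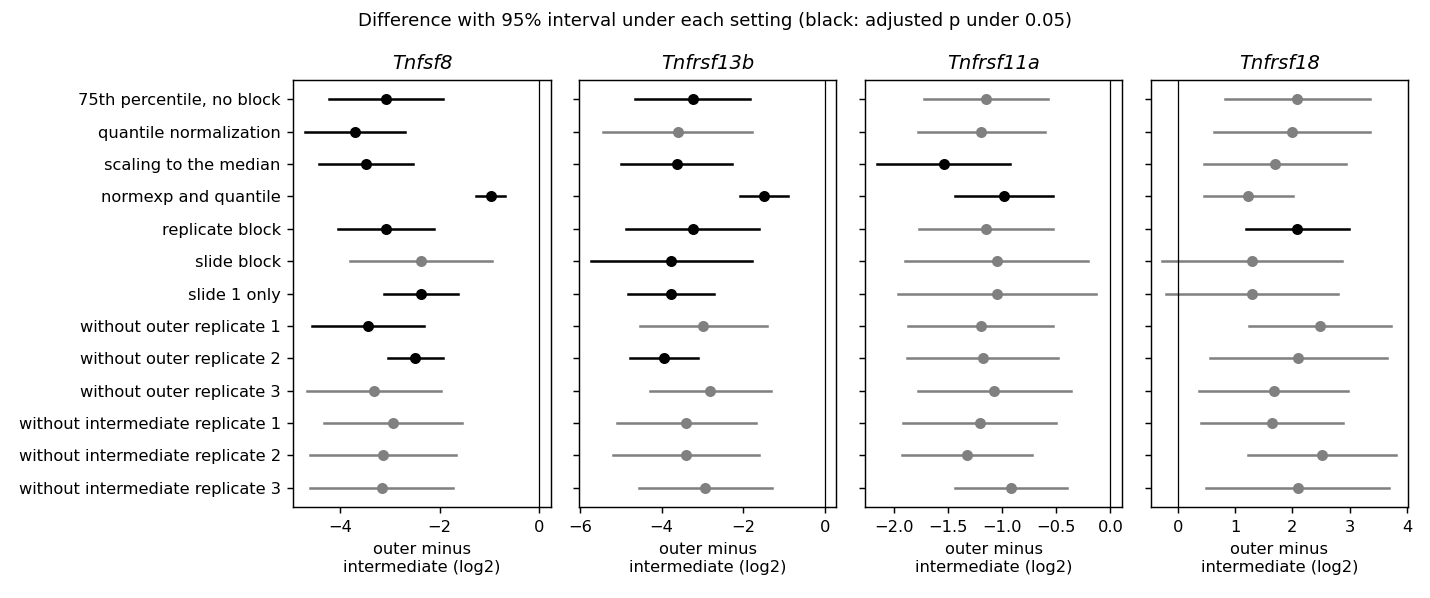
Differences of Tnfsf8, Tnfrsf13b, Tnfrsf11a and Tnfrsf18, outer minus intermediate on the log2 scale with 95% intervals, under the scaling to the 75th percentile (top) and under other settings, in black where the adjusted p was under 0.05. The sign is the same in every setting drawn, while the side of the threshold changes for all 4 genes.

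The family members with other symbols and the genes downstream were read from lists chosen with earlier results of these data known. Of 15 such family genes on the array 6 were tested, and 1 of them was lower in the outer interzone, none higher. This was Cd40, the receptor that antigen-presenting cells use to receive T cell help, at -4.20 ± 1.16 in the outer and -1.60 ± 0.24 in the intermediate samples (-2.60, limma adjusted p = 0.0483, or 0.122 after blocking on slide). It was well above background on 1 of 3 outer arrays, and it lost its call without any 1 array except outer replicate 2 (limma adjusted p = 0.0553 to 0.169). The list median was -0.32. None of 27 tested receptor-proximal signalling genes passed, with a median of -0.043 beside 0.10 for all genes. Values are given for the adaptor gene Traf2 (0.13, limma adjusted p = 0.676) and Rbck1, a subunit of the linear ubiquitin ligase complex (-0.00, limma adjusted p = 0.999).

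Of 15 tested NF-kB subunits, inhibitors and target genes, 3 were lower in the outer interzone and none was higher, with a list median of -0.29 (-0.27 with genes below background in the outer samples at their bound). The monocyte chemokine gene Ccl2 differed by -3.33, the TNF-induced gene Tnfaip2 by -2.52 and Bcl3, which encodes a nuclear partner of NF-kB, by -1.94 (limma adjusted p = 0.0322, 0.0238 and 0.0268). Ccl2 and Tnfaip2 were well above background on 2 of 3 outer arrays and Bcl3 on all. All 3 lost their calls without outer replicate 3 or any 1 intermediate array (limma adjusted p = 0.0713 to 0.131). None of the NF-kB subunit genes tested passed. Of 7 tested osteoclast genes none passed (median -0.13). Nfatc1, the transcription factor that RANK signalling induces, differed by 0.36 (limma adjusted p = 0.348, and -0.036 with arrays scaled to their median), and Acp5, the osteoclast phosphatase gene, by -0.13 (limma adjusted p = 0.876).

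Markers of other cell types moved with the members that were lower in the outer interzone. Of 16 tested macrophage and leukocyte markers 13 were lower in the outer interzone and none was higher (median -3.26, or -3.13 with bounds). Their summed level, in multiples of the 75th percentile, was 57.6 to 132 on the outer and 114 to 186 on the intermediate arrays, so the ranges overlapped. In such sums the brightest probes count most, and a sum is compared only between arrays. Itgam weighs heavily in these sums, as its mean was the highest of the tested markers in both layers. It was not called, at 5.84 ± 1.03 in the outer and 5.08 ± 0.74 in the intermediate samples (limma adjusted p = 0.486). The pan-leukocyte gene Ptprc stood at -3.44 ± 0.16 in the outer and -1.99 ± 0.72 in the intermediate samples (limma adjusted p = 0.0759). Of 11 tested endothelial markers 7 were lower and none higher (median -2.32), with sums of 54.9 to 77.4 outer and 95.7 to 115 intermediate, and Pecam1 differed by -1.90 (limma adjusted p = 0.0147). The bright marker Kdr was not called, at 5.36 ± 0.64 in the outer and 4.55 ± 0.29 in the intermediate samples (limma adjusted p = 0.231). Of 11 lymphocyte markers 4 were tested and 1 was lower, while Cd2, Cd3d, Cd3g and Ms4a1 were well above background on no array, and the sums were 8.24 to 12.3 outer and 6.54 to 8.32 intermediate. Of 3 tested Schwann cell and nerve markers 2 were lower and none higher (median -2.50), with sums of 1.06 to 1.71 outer and 4.96 to 5.49 intermediate, which did not overlap. Of 15 cartilage markers 13 were higher and none lower (median 3.19), with sums of 629 to 931 outer and 82.7 to 148 intermediate. The part of these cells in the differences of Tnfsf8, Tnfrsf13b, Tnfrsf1b, Tnfsf18, Tnfrsf11a and Cd40 was not tested.

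**Figure D5:**
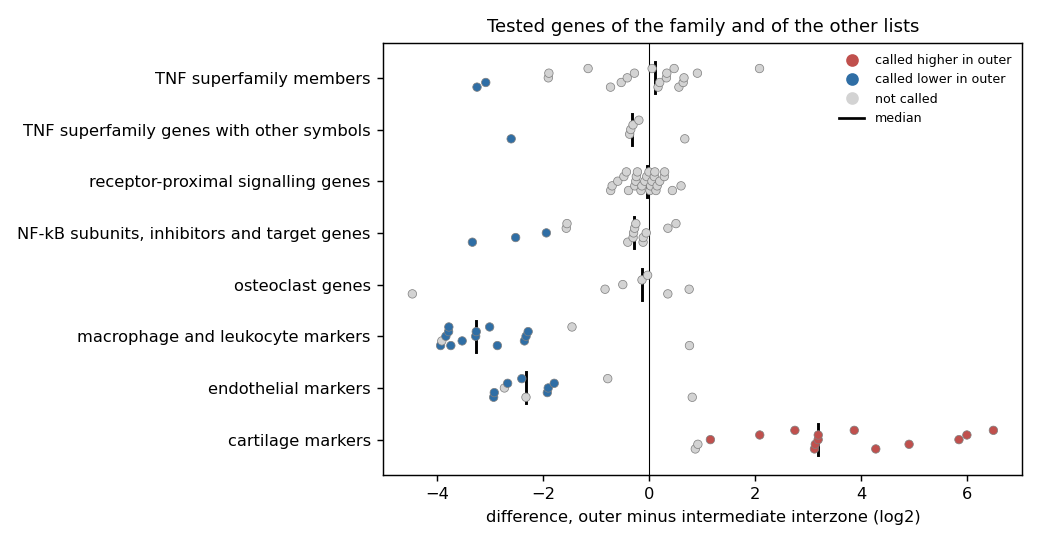
Difference of each tested gene, outer minus intermediate on the log2 scale, for the family and for 7 other lists, with genes called higher in the outer interzone in red, called lower in blue and not called in grey, and a black bar at each median. The family is centred near the median of all genes at 0.10, with 2 members called on the left, while the leukocyte list is centred at -3.26 and the cartilage list at 3.19.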

How the data were processed

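The authors' deposited scanner files hold, per the file headers, spot intensity from Agilent Feature Extraction 10.7.3.1 (background-subtracted, detrended, build mm9) and a flag for spots well above background. Partek 6.11.0321 is listed, without its role, in the submitters' processing notes. The authors' deposited series table holds the same intensity divided by 1 constant per array (column medians of 1), on a linear scale, with no direction stated.

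Flagged spots were left out, spots of a probe averaged as log2, and each array's 75th percentile subtracted. A probe was tested where well above background on all 3 arrays of a group, with a gene as its brightest tested probe. Limma 3.58.1 (R 4.3.3, two-sided, Benjamini-Hochberg over 18003 genes) was tested on simulated data. The number of arrays, 3 per group, limits the precision. Of 28390 probes with a RefSeq accession 26762 matched RefSeq symbols. The 30 members, lists and tests were chosen with earlier results of these data known. All tested members are named, from the 4 pathway lists up to 4 called or the 2 brightest, and other lists by counts. Same-numbered outer and intermediate samples correlated at 0.563, 0.480 and 0.372 after removing group means, so the replicate numbers, which come from the labels, were taken to pair the samples. The fit was set without a block. No exon or UTR annotation was used.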

Additional observations from a re-analysis of the deposited data

How the results depend on the processing

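Alternatives were set beside the fit without a block, which called 729 genes and, of the members, 2 lower and 0 higher in the outer interzone. With arrays scaled to their median, or with the authors' deposited values, 1095 genes and 5 members lower in the outer interzone were called. Quantile normalization gave 446 genes, the filter on all 6 arrays 460 genes and 1 member lower, and the slide block 1215 genes and 1 member lower. Slide 1 alone gave 1314 genes, and the replicate block 1636 genes and 2 members higher. With dim probes kept, limma called 0 genes and 0 members, with 4268 genes at unadjusted p under 0.05. Leaving out 1 array in turn gave 66 to 1111 genes, 0 to 2 members lower and 0 to 0 higher. The replicate block changed no member's call other than those of Tnfrsf18 and Tnfrsf19. Of 334 member values under an alternative, 287 kept direction and side of the threshold. Tnfrsf14 turned negative with median scaling and the authors' values (-0.33 for both), quantile normalization (-0.11), normexp (-0.011), and slide as a block or slide 1 alone (-0.78 for both). Tnfrsf21 did so in the first 4 of these (-0.22, -0.22, -0.015 and -0.031). Median scaling and the authors' values also turned Tnfrsf9 (-0.19), Tnfrsf22 (-0.063), Tnfrsf10b (-0.055), Traf2 (-0.26) and Nfatc1 (-0.036). They move the median of all genes from 0.10 to -0.29, and relative to that median each member's difference stayed as it was. Averaging probes turned Tnfsf12 (-0.069) and Traf2 (-0.34). Slide as a block and slide 1 alone turned Rbck1 (0.057). Leaving out 1 array in turn gave -0.30 to 0.48 for Tnfrsf14, -0.045 to 0.38 for Tnfrsf21, -0.44 to 0.34 for Acp5, -0.56 to 0.51 for Gdf5 and -0.029 to 0.021 for Rbck1. The cause of the other changes was not tested. Signal over background limits Tnfsf8, Tnfrsf13b, Tnfrsf1b and Tnfsf18 in the outer interzone and Tnfsf11 in both layers.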

Other observations

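Among the family genes with other symbols, Eda, the ectodysplasin ligand of skin appendage development, was measured on all 6 arrays, at -0.20 ± 0.32 in the outer and 0.16 ± 0.26 in the intermediate samples (limma adjusted p = 0.409), while its receptor gene Edar was well above background on no array. Ltbr encodes the lymphotoxin beta receptor and was bright in both layers, at 3.62 ± 0.50 in the outer and 3.92 ± 0.25 in the intermediate samples (limma adjusted p = 0.58), whereas the ligand genes Lta and Tnf were well above background on no array. Ngfr, the neurotrophin receptor gene, varied widely in the intermediate samples, at 0.18 ± 0.66 in the outer and -0.49 ± 1.62 there (limma adjusted p = 0.654). These genes, and the next 2, were chosen after their values were seen. Trem2, a myeloid receptor gene of the osteoclast list, stood at -2.48 ± 2.22 in the outer and 1.99 ± 0.55 in the intermediate samples, with 1 of 3 outer arrays well above background (-4.46, limma adjusted p = 0.0613). Casp8, the protease gene downstream of death-domain receptors, was at 0.81 ± 0.13 in the outer and 1.53 ± 0.16 in the intermediate samples, a difference of -0.72 (limma adjusted p = 0.0712).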
